A study of Mus musculus with 20 samples.

Results

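The cells described here were myeloid cells that had entered injured mouse muscle from the blood, compared at 6 days and at 4 days after injury. They came from parabiosis, in which a wild-type (WT) female mouse was joined by surgery to a female mouse carrying green fluorescent protein (GFP), so that GFP+ cells found in the damaged tibialis anterior (TA, a muscle of the lower hind leg) of the WT partner had arrived through the shared circulation. Live CD45+ CD11B+ cells that were GFP+ and lacked LY6G and SIGLECF were sorted, which selects leukocytes of the myeloid lineage and leaves out neutrophils and eosinophils. There was 1 library at day 6 and there were 2 at day 4, which make 3 of the 20 samples of the series. The library at day 2 from the same kind of sort was measured in the same table and gives the earlier course. All 4 libraries share the WT female partner, the parabiosis and the sort. The labels used here give neither the injuring agent nor the age of the mice, and do not say whether 1 library is 1 mouse. A p-value below therefore rests only on the spread between the 2 day 4 libraries, pooled over genes, which may be technical. The spread at day 6 was not measured.

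After muscle injury, monocytes enter from the blood, clear debris and turn into macrophages with repair functions as the muscle regenerates. Monocytes can also give rise to cells that display antigen on major histocompatibility complex (MHC) class II molecules, a property shared by dendritic cells, which carry antigen to lymph nodes with the help of the chemokine receptor CCR7. Cells that carry CD11B also include natural killer (NK) cells and some activated T cells, so that this gate need not hold macrophages alone.

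Values are FPKM (mapped fragments scaled to transcript length and sequencing depth) as the authors deposited them, and day 4 values are given with replicate 1 before replicate 2. The file listed 32073800 alignments for the day 6 library, against 31958500 and 25953400 for the day 4 libraries, and 34655400 for the day 2 library. The library titles carry 15k on day 6 and 50k and 60k on day 4. What these figures stand for is not given in the sources used here, and they cannot be told apart from the day. Across genes, the day 6 library correlated with the day 4 libraries at r = 0.983 and 0.976 on the log2(FPKM + 1) scale, and the day 4 libraries with each other at 0.978. Genes are not independent replicates, and these figures only describe how alike the libraries were. Defining myeloid genes were present throughout. The receptor gene Csf1r had 356 FPKM on day 6, against 352 and 341 FPKM on day 4, and Adgre1, which encodes F4/80, had 197 FPKM on day 6, against 229 and 162 FPKM on day 4. Over the 16 general macrophage genes the summed level was 14739 FPKM on day 6, against 15627 and 17173 FPKM on day 4. The B cell gene Cd79a had 0.328 FPKM on day 6, against 0.0934 and 0.171 FPKM on day 4. The basophil gene Mcpt8 was listed at 0 in the day 6 and both day 4 libraries. The day 4 libraries themselves differed in several genes. Retnla, a gene of macrophages exposed to interleukin 4, had 46.9 FPKM on day 6, against 3.73 and 156 FPKM on day 4. The neutrophil granule genes Camp and Ngp had 1.04 and 1.50 FPKM on day 6, against 5.28 and 9.34 FPKM in day 4 replicate 1 and 0 FPKM each in day 4 replicate 2.

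Genes were tested where their mean over the 4 libraries reached 1 FPKM. Of these 9805 genes, 82 were higher (0.836%) and 12 lower (0.122%) on day 6 by limma-trend with Benjamini-Hochberg adjustment over all of them. A gene was called when its adjusted p was under 0.05 and its day 6 value lay outside both day 4 values. The largest rises among genes of at least 5 FPKM were in Xcl1, a chemokine of NK and T cells, and Ifnb1, which encodes interferon beta. The largest falls were in Cd5l, a secreted scavenger receptor protein of macrophages, and Serpine2, an inhibitor of thrombin and other serine proteases. Without any test, day 6 lay above both day 4 libraries in 2925 genes (29.8%) and below both in 3020 (30.8%), so that being outside both was common and said little about a single gene. At a distance of at least 2-fold on FPKM + 1 from the nearer day 4 library, the counts were 76 above (0.775%) and 10 below (0.102%). Of the called genes, 65 higher and 8 lower ones also met that distance. The smallest called change was 1.04 on the log2 scale for a higher gene and, for a lower one, a fall by 1.18 on the log2 scale. Among the 82 higher genes, 38 had a day 4 mean under 2 FPKM. The day 6 value counts in the mean used as a filter, so a gene low elsewhere could be tested through day 6 alone. Cd3g, Ncr1, Klra8, Pvalb and Lyve1, each under 1 FPKM in every other library, entered in this way, as did Cpa3 and others. Genes equally low that stayed low were not tested, so the filter favours rises among low genes. The median change over all tested genes was 0.01 on the log2 scale. These shares and this median are the background for every count and median of a gene list below.

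The test rests on 1 residual degree of freedom, since only day 4 had a second library, and the lone day 6 library was assumed to vary like the day 4 ones. The spread used for a gene was in effect that of all genes at its level, an SD of 0.26 on the log2 scale at 2 FPKM and 0.27 at 100 FPKM, and it was larger still for the most abundant genes, which therefore needed a larger change to be called. An exact permutation test of a single gene with 1 library against 2 cannot give a p under 0.333. With each gene's own spread alone no gene was called, with 404 at an unadjusted p under 0.05. Without the filter on low values none was called either, with 1056 at that unadjusted p, and with a pseudocount of 0.1 FPKM the counts were 23 higher and 7 lower.

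**Figure D1:**
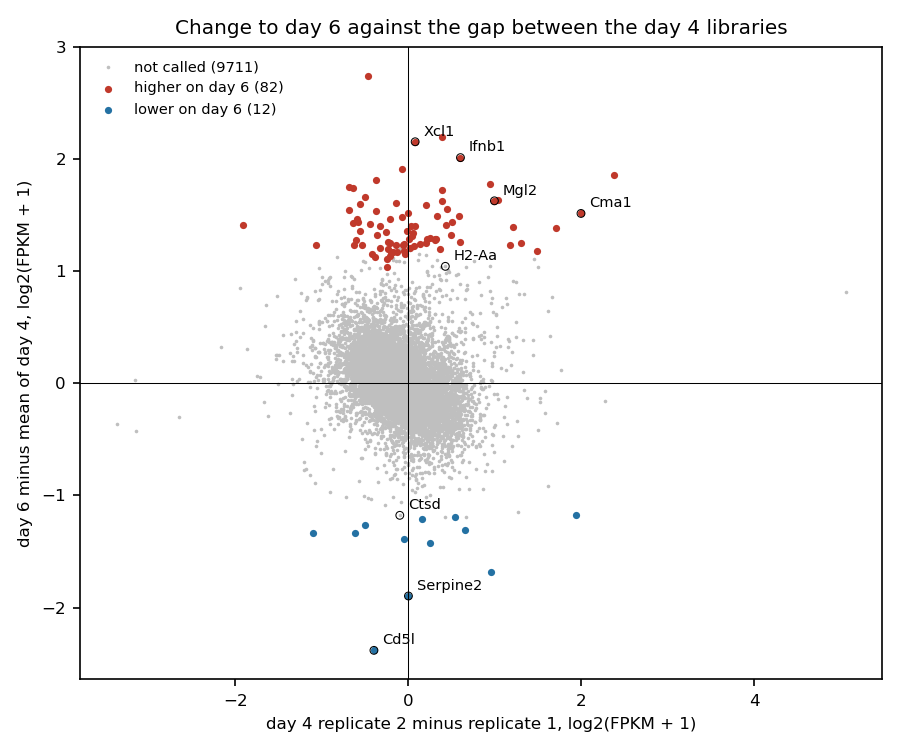
Change to day 6 (vertical axis, day 6 minus the mean of day 4, log2(FPKM + 1)) against the gap between the day 4 libraries (horizontal axis, replicate 2 minus replicate 1, the same scale), 1 point for each of 9805 tested genes. The 82 genes called higher are red, the 12 called lower are blue and the rest are grey. Most called genes stand where the day 4 libraries were close to each other, while Cma1 and a few others stand far to the side.

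The MHC class II genes on chromosome 17 are shown first by their promoters, because they held the highest levels among the gene lists whose members all lay above day 4. Class II promoters are known for a shared layout, an X box bound by the RFX complex followed at a set distance by a Y box bound by NF-Y, onto which the coactivator CIITA is recruited. A search for the letters GCAAC followed on the coding strand by GATTGG, with 29 to 32 bases from the first base of one to the first base of the other, found the pair in 5 of the 8 class II genes whose RefSeq promoters were searched. The letters and the spacing were chosen after these promoters had been seen. H2-Ab1, Cd74 and Ciita, also members of the class II list, were not searched. The 2 motifs do not overlap at this spacing. The pair stood in 16 of 32851 promoter windows of 250 bases before a start (0.0487%), whereas GCAAC alone, on either strand, stood in 29.9% and GATTGG alone in 14.6%. A match is a description of letters, not of a bound site. The 140 bases before the start of each gene with the pair are given 5′ to 3′ on the coding strand (RefSeq, GRCm38.p6), with the GCAAC and GATTGG of the pair in capitals, and any further copy outside the pair in lower case.
H2-Aa, chr17:34287824-34287963, minus strand: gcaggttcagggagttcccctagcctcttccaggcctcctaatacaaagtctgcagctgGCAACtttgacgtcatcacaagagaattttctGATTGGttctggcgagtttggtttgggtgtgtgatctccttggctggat
H2-Eb1, chr17:34305727-34305866, plus strand: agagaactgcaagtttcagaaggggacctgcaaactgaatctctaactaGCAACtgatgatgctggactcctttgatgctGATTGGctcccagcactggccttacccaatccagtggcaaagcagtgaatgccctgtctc
H2-Eb2, chr17:34325535-34325674, plus strand: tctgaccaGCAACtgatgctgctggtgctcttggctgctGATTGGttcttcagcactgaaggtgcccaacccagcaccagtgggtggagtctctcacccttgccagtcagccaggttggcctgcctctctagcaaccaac
H2-Oa, chr17:34092239-34092378, plus strand: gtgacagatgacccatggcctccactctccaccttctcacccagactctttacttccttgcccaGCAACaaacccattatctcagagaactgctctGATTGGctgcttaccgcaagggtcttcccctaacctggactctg
H2-Ob, chr17:34238765-34238904, plus strand: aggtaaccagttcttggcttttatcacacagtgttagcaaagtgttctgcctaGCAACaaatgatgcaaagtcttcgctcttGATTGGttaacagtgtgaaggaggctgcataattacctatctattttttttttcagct
In H2-Aa the first base of GCAAC lay 81 bases before the start and in H2-Eb1 it lay 91 bases before it, while in H2-Eb2 it lay 132 bases before it. H2-DMa, H2-DMb1 and H2-DMb2 did not hold the pair at this spacing in the window.

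All 11 class II genes lay above both day 4 libraries on day 6, where 29.8% of all tested genes did, and none passed the test. H2-Aa (17:34282744-34287823, minus strand), which encodes the alpha chain of the I-A molecule, had 5261 FPKM on day 6, against 2198 and 2956 FPKM on day 4, a ratio of 2.04 to the day 4 mean. Its log2 change was 1.05 ± 0.49 (SE), with an adjusted p of 0.831. On day 2 it stood at 551 FPKM, below every later library. H2-Ab1, the beta chain, had 4754 FPKM on day 6, against 2206 and 2864 FPKM on day 4, and H2-Eb1 had 3377 FPKM on day 6, against 1406 and 1764 FPKM on day 4. Cd74, the invariant chain that occupies the class II groove during transport, had 10231 FPKM on day 6, against 4254 and 6316 FPKM on day 4. In each of these 4 genes the day 6 library was the highest of all 4. The peptide-loading genes H2-DMa and H2-DMb1 showed smaller distances, with 205 FPKM on day 6 against 120 and 183 FPKM on day 4 for H2-DMa, and 326 FPKM on day 6 against 189 and 260 FPKM on day 4 for H2-DMb1. Ciita, the coactivator itself, had 15.8 FPKM on day 6, against 13 and 9.10 FPKM on day 4. Summed over the list, class II genes stood at 24203 FPKM on day 6, against 10407 and 14369 FPKM on day 4, with a median log2 change of 0.69 beside 0.01 for all tested genes.

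Genes of dendritic cells rose in part. Of 14 genes known from mature dendritic cells that migrate to lymph nodes, 3 rose, none fell and all 14 lay above both day 4 libraries, with a median log2 change of 0.84. Ccl22, a chemokine that attracts T cells through CCR4, had 49.9 FPKM on day 6, against 23 and 15.3 FPKM on day 4, a log2 change of 1.36 ± 0.32 (SE, adjusted p = 0.00553). Ccr7, the receptor that guides cells to lymph nodes, had 72.5 FPKM on day 6, against 36.2 and 30.2 FPKM on day 4, with an adjusted p of 0.0487, close to the threshold. Serpinb6b, a protease inhibitor, had 6.82 FPKM on day 6, against 2.53 and 1.99 FPKM on day 4. On FPKM + 1, Ccl22 and Serpinb6b lay at least 2-fold above both day 4 libraries. Ccr7 fell just short of that, at a log2 distance of 0.98 from the nearer day 4 library. Ccl17, the other ligand of CCR4, had 4.72 FPKM on day 6, against 1.21 and 2.50 FPKM on day 4, and did not pass (adjusted p = 0.0848). Fscn1, which bundles actin in mature dendritic cells, had 32 FPKM on day 6, against 18.4 and 15.3 FPKM on day 4.

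In the list of type 2 conventional dendritic cells, 1 of 10 tested genes rose and 8 lay above both day 4 libraries. The 8 include Klrd1, Cd7 and Ltb, which are also known from NK and T cells. This count is thus not one of dendritic cells alone. The riser was Mgl2, a lectin for galactose-type sugars, at 40.6 FPKM on day 6, against 8.53 and 18.0 FPKM on day 4. Its log2 change was 1.63 ± 0.33 (SE, adjusted p = 0.000544). Its close relative Clec10a had 83.8 FPKM on day 6, against 38.1 and 78.0 FPKM on day 4, so the day 6 value was barely above day 4 replicate 2. Cd209a had 35 FPKM on day 6, against 21.0 and 19.3 FPKM on day 4, and the growth factor receptor gene Flt3 had 11.8 FPKM on day 6, against 7.73 and 5.18 FPKM on day 4. Neither passed. Of the type 1 list, none of 8 tested genes passed, 6 lay above and 2 below both day 4 libraries. Clec9a, a receptor for dead cells on type 1 dendritic cells, had 2.60 FPKM on day 6, against 1.37 and 1.15 FPKM on day 4. Xcr1, the receptor for XCL1, had 0.922 FPKM on day 6, against 0.487 and 0.340 FPKM on day 4, under the filter, as was the dendritic cell transcription factor gene Zbtb46 at 1.6 FPKM on day 6, against 0.688 and 0.636 FPKM on day 4. In bulk RNA, more cells of a type and more RNA per cell cannot be told apart, which holds for every group below as well. With a pseudocount of 0.1 FPKM, Ccl22, Ccr7 and Serpinb6b did not pass (adjusted p = 0.057, 0.13 and 0.12), whereas Mgl2 did. Ccr7 did not pass with median centring (adjusted p = 0.13).

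**Figure D2:**
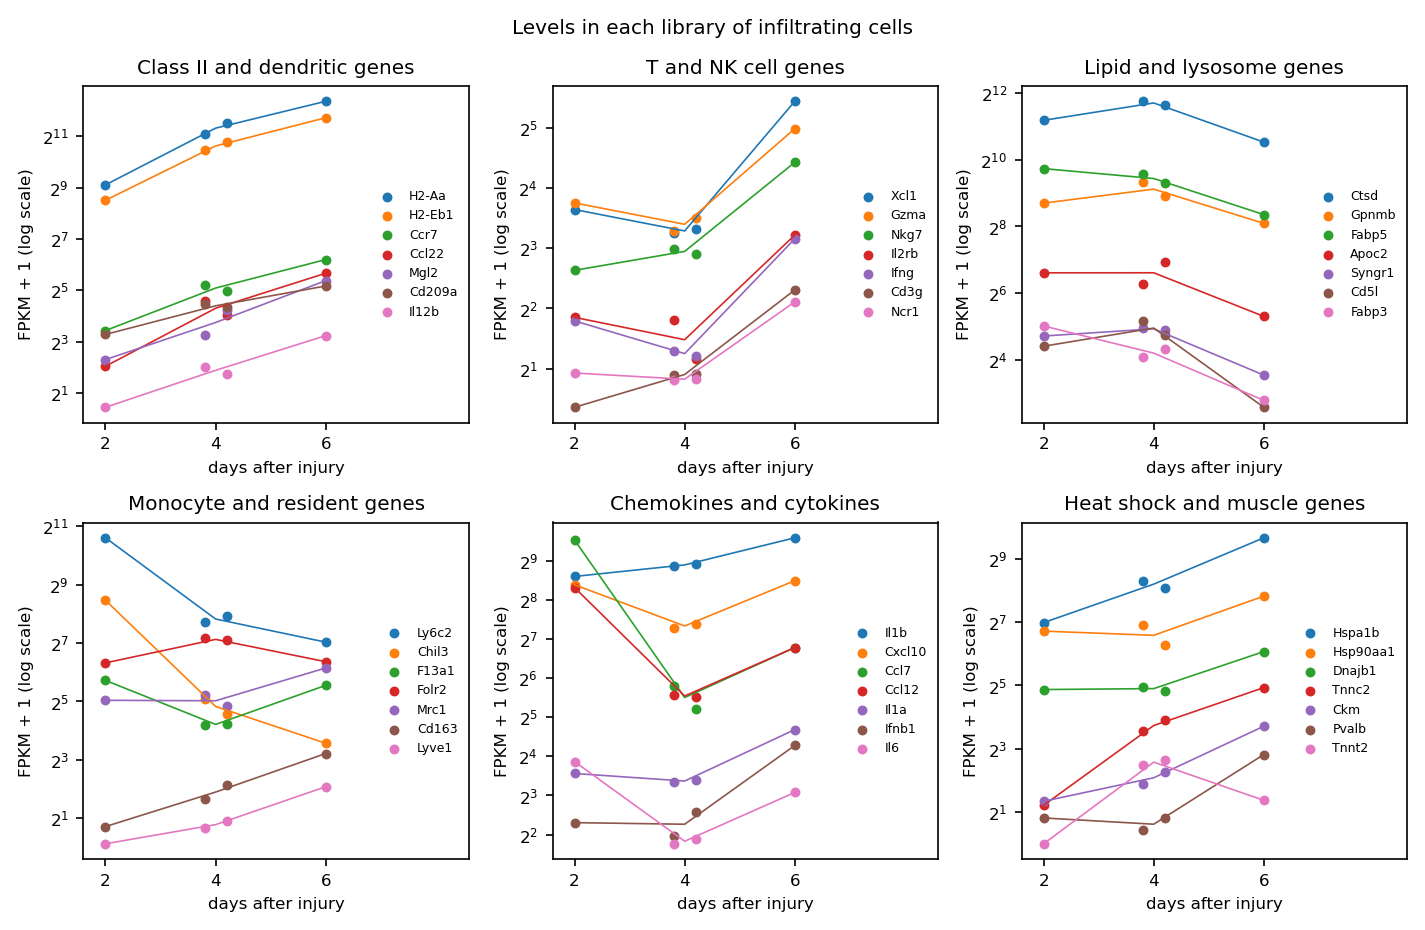
FPKM + 1 (vertical axis, log scale) in each library of infiltrating cells by days after injury (horizontal axis), with 1 colour per gene. Points are libraries, with day 4 replicate 1 drawn left of replicate 2, and lines join the mean of the day 4 points on the log scale to the single libraries of day 2 and day 6. H2-Aa climbs at each step, whereas Xcl1, Gzma and Il2rb stand at about the same level on days 2 and 4 and stand above it on day 6.

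The gene list with the most risers was that of T and NK cells, whose chemokine gene Xcl1 also headed the rises at 5 FPKM or more. Xcl1 (1:164931644-164935527, minus strand) had 42.6 FPKM on day 6, against 8.52 and 9.05 FPKM on day 4 and 11.5 FPKM on day 2. Its log2 change was 2.16 ± 0.33 (SE, adjusted p = 1.75e-07), and the earlier libraries lay close together. Of 20 genes in the T and NK cell list, 18 were read here and 14 were tested. Of these, 9 rose, where 0.836% of all tested genes did, and none fell. Of the 14, 13 lay above both day 4 libraries, where 29.8% of all tested genes did, with a median log2 change of 1.24. Low members could be tested through their day 6 value alone, which favours this count of risers. Gzma, a protease of cytotoxic granules, had 30.8 FPKM on day 6, against 8.82 and 10.3 FPKM on day 4, and Nkg7, a membrane protein of those granules, had 20.6 FPKM on day 6, against 6.94 and 6.52 FPKM on day 4. Il2rb, a chain of the receptors for interleukins 2 and 15, had 8.33 FPKM on day 6, against 2.48 and 1.24 FPKM on day 4. Cd3g, a part of the T cell receptor complex, had 3.95 FPKM on day 6, against 0.848 and 0.888 FPKM on day 4, and the NK cell receptor gene Ncr1 had 3.32 FPKM on day 6, against 0.762 and 0.776 FPKM on day 4. Among the tested genes, both T cell and NK cell defining genes rose on day 6, at levels far below those of the myeloid genes. Cd3g and Ncr1 were under 1 FPKM in each earlier library and met the filter only through day 6. Their rises thus add no support of their own. Summed over the list, the level was 129 FPKM on day 6, against 60.7 and 52.8 FPKM on day 4 and 74.8 FPKM on day 2. Cd3g did not pass with a pseudocount of 0.1 FPKM (adjusted p = 0.080), whereas Xcl1, Gzma, Nkg7 and Il2rb did.

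Further genes that rose are known chiefly from lymphocytes. Ms4a4b, a T cell membrane protein, had 17.2 FPKM on day 6, against 5.84 and 3.26 FPKM on day 4. Ptprcap, which binds CD45, had 9.85 FPKM on day 6, against 2.78 and 2.77 FPKM on day 4. Gimap6, of a family of GTPases of lymphocytes, had 11.9 FPKM on day 6, against 2.42 and 3.47 FPKM on day 4, and Gimap1, Gimap3 and Gimap4 were called as well. Ifng, which encodes interferon gamma, was picked for mention after its values were seen. It had 7.93 FPKM on day 6, against 1.44 and 1.32 FPKM on day 4. The largest log2 change of all, 2.75, was in the NK receptor gene Klra8, at 6.88 FPKM on day 6, against 0.379 and 6.44e-06 FPKM on day 4. Klra7, Klra8 and Klra9 are near-identical copies between which the authors' software may have divided reads, so the value of each alone is uncertain. Leaving members of 5 lists of other cell types (T and NK, B and plasma, mast, skeletal muscle, erythroid and platelet) out of the count left 64 higher and 12 lower genes. The part of lymphocytes in the other rises was not tested.

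Markers of mast cells and of muscle fibres were higher on day 6 too. Of the 11 mast cell and basophil genes in the list, 5 were tested. Of these 5, 4 rose, and all 4 had been near 0 in day 4 replicate 1 alone. Cma1, a mast cell chymase, had 5.37 FPKM on day 6, against 0.115 and 3.45 FPKM on day 4. Mcpt4, another chymase, had 4.33 FPKM on day 6, against 0.125 and 2.68 FPKM on day 4, and Cpa3 and Tpsb2 showed the same order of libraries. Cpa3 had 2.70 FPKM on day 6, against 0.0426 and 1.35 FPKM on day 4, and 0.788 FPKM on day 2. It met the filter only through day 6, so its rise adds no support of its own. The median log2 change of the 5 tested genes was 1.24 against both day 4 libraries, 0.52 without day 4 replicate 1 and 1.93 without replicate 2. The list's summed level was 18.9 FPKM on day 6, against 2.24 and 11.2 FPKM on day 4. Of the 15 muscle genes in the list, 8 were tested, 4 of these rose and 7 lay above both day 4 libraries. Ckm, the muscle creatine kinase, had 12.1 FPKM on day 6, against 2.72 and 3.85 FPKM on day 4, and Pvalb, a calcium buffer of fast fibres, had 6.06 FPKM on day 6, against 0.343 and 0.754 FPKM on day 4. Pvalb was under 1 FPKM in each earlier library and met the filter only through day 6. Its rise thus adds no support of its own. Tnnt3 and Tnnc2, troponins of fast fibres, rose as well, and Myl1, a myosin light chain outside the list, had 25.6 FPKM on day 6, against 6.70 and 10.6 FPKM on day 4. By contrast Tnnt2 and Tnnc1, troponins of heart, slow and regenerating muscle, fell. Tnnt2 had 1.59 FPKM on day 6, against 4.65 and 5.32 FPKM on day 4. The satellite cell gene Pax7 was at 0.0873 FPKM on day 6, against 0.0725 and 0.177 FPKM on day 4. The muscle list summed to 122 FPKM on day 6, against 51.2 and 62.8 FPKM on day 4 and 8.26 FPKM on day 2. With a pseudocount of 0.1 FPKM none of the 4 mast cell genes passed (adjusted p from 0.13 to 0.17), nor did Tnnt3, Tnnc2 and Myl1 (0.13, 0.13 and 0.051), while Ckm and Pvalb did. With median centring the 4 mast cell genes (0.079 to 0.19) and Tnnc2 (0.059) did not pass.

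Other marker lists held fewer called genes. None of 11 tested genes of fibro-adipogenic progenitors, the connective tissue progenitors of muscle, passed, 7 lay above and 1 below both day 4 libraries, and the list's sum was 349 FPKM on day 6, against 331 and 451 FPKM on day 4. None of 7 tested endothelial and mural genes passed, and 5 of them lay below both day 4 libraries. Of 8 neutrophil genes tested, 1 rose, namely the protease gene Mmp9, which macrophages also express, at 5.21 FPKM on day 6, against 2.23 and 1.41 FPKM on day 4. Of 3 B and plasma cell genes tested, none passed. The eosinophil list had 1 tested gene, Ear2, a ribonuclease, at 19.9 FPKM on day 6, against 4.85 and 15.0 FPKM on day 4, which did not pass (adjusted p = 0.072). That list summed to 22.3 FPKM on day 6, against 6.55 and 16.1 FPKM on day 4 and 27.2 FPKM on day 2, while its defining gene Prg2 was listed at 0 in the day 6 and both day 4 libraries. Among 4 tested erythroid and platelet genes the haemoglobin gene Hbb-bs rose, at 5.86 FPKM on day 6, against 1.95 and 1.85 FPKM on day 4, while its near-identical neighbour Hbb-b1 fell, at 0.0107 FPKM on day 6, against 0.166 and 3.47 FPKM on day 4. Values of such copies are uncertain. Mmp9 and Hbb-bs did not pass with a pseudocount of 0.1 FPKM (adjusted p = 0.20 and 0.11), and Mmp9 did not pass with day 4 and day 6 alone in the fit (adjusted p = 0.059). The erythroid gene Alas2 was listed at 0 on day 6, against 0.0313 and 0.0382 FPKM on day 4.

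**Figure D3:**
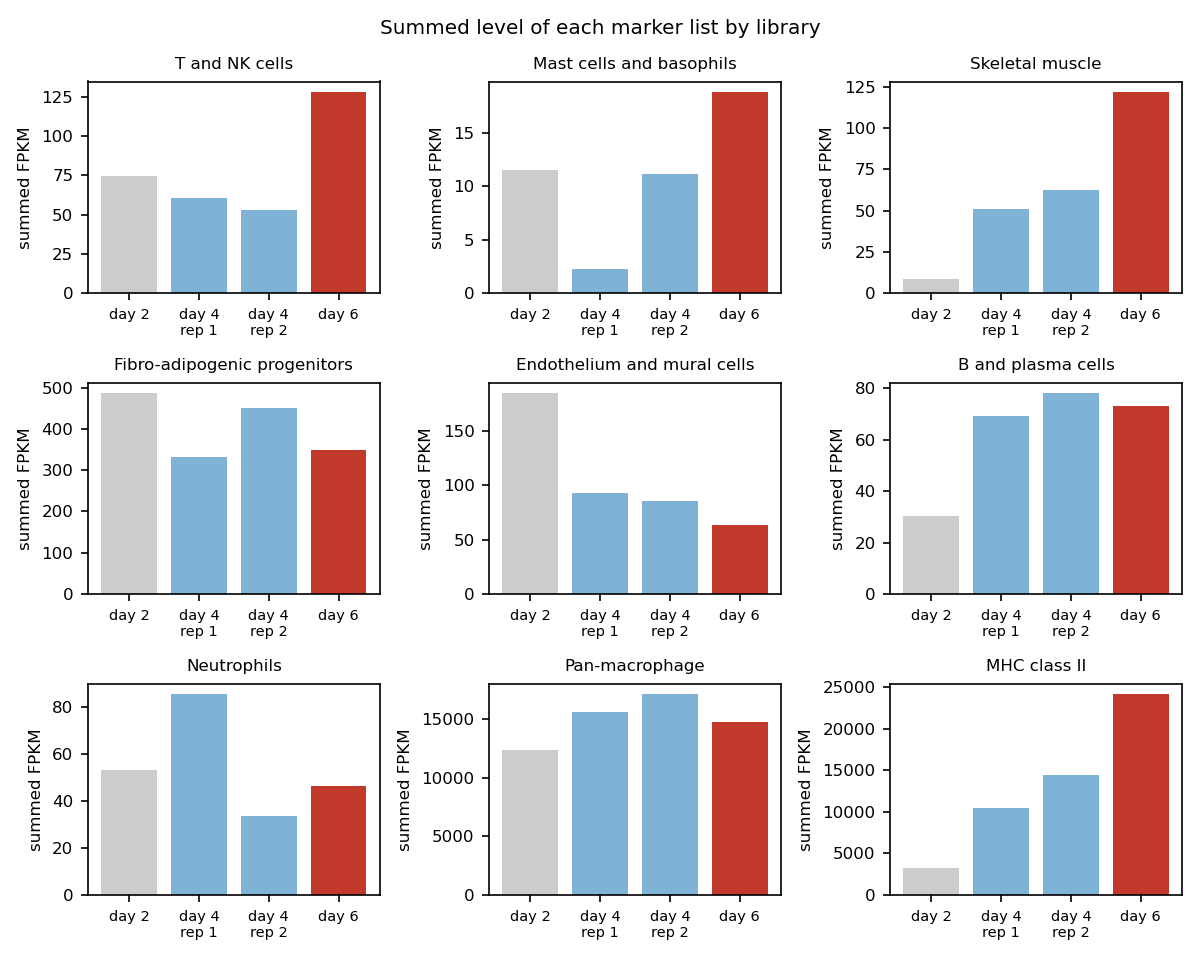
Summed FPKM (vertical axis, linear, from 0) of 9 marker lists in the library of day 2, both libraries of day 4 and the library of day 6 (bars, 1 library each, no error). The T and NK cell, mast cell, muscle and class II lists are highest on day 6, while the neutrophil list is highest in day 4 replicate 1 and the macrophage list lies between 12330 and 17173 FPKM.

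Several genes known from resident tissue macrophages rose. Of 18 tested genes of that list, 5 rose, 13 lay above and 3 lay below both day 4 libraries. F13a1, the A chain of clotting factor XIII, had 45.9 FPKM on day 6, against 17.2 and 17.9 FPKM on day 4, and 51.8 FPKM on day 2. Cd163, the haemoglobin scavenger receptor, had 8.29 FPKM on day 6, against 2.14 and 3.40 FPKM on day 4. Lyve1, a hyaluronan receptor of vessel-associated macrophages, had 3.22 FPKM on day 6, against 0.570 and 0.871 FPKM on day 4. It was under 1 FPKM on day 2 as well and met the filter only through day 6, so its rise adds no support of its own. Mrc1, the mannose receptor, had 69.9 FPKM on day 6, against 36.2 and 27.4 FPKM on day 4, with an adjusted p of 0.0424. Cd209f, a lectin, had 5.35 FPKM on day 6, against 0.586 and 2.68 FPKM on day 4, so that the day 4 libraries were far apart. The list was not uniform. Folr2, the folate receptor beta, had 81.3 FPKM on day 6, against 142 and 136 FPKM on day 4, and Pf4 had 192 FPKM on day 6, against 308 and 364 FPKM on day 4, both below day 4 without passing. Timd4, a receptor for dead cells on long-lived resident macrophages, was under the filter at 0.543 FPKM on day 6, against 0.171 and 0.0696 FPKM on day 4. The list's median log2 change was 0.54, and it was 0.17 without day 4 replicate 1 and 0.88 without replicate 2. With a pseudocount of 0.1 FPKM, F13a1 passed and the other 4 risers did not, at adjusted p from 0.13 to 0.16. Mrc1 did not pass with median centring either (adjusted p = 0.13).

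Of 14 tested genes of alternative activation, the state induced by interleukins 4 and 13, 4 rose and 1 fell. The risers Mgl2, Ccl22, Cd163 and Mrc1 are described above. The gene that fell was Chil3, a chitinase-like protein, which had 10.9 FPKM on day 6, against 32.8 and 22.9 FPKM on day 4. On day 2 it had stood at 353 FPKM. Arg1, the arginine-cleaving enzyme often used to mark this state, had 0.337 FPKM on day 6, against 0.713 and 0.974 FPKM on day 4, and 16.7 FPKM on day 2. The monocyte gene Ly6c2 had 130 FPKM on day 6, against 212 and 242 FPKM on day 4, and 1563 FPKM on day 2, so the larger gap lay between day 2 and day 4. Its change to day 6 did not pass (adjusted p = 0.791). Of 15 tested genes of inflammatory monocytes, Chil3 alone fell, 7 lay above and 5 below both day 4 libraries. Of all tested genes, 29.8% lay above and 30.8% below. Ccr2, the receptor with which monocytes leave the marrow, had 112 FPKM on day 6, against 74.4 and 61.3 FPKM on day 4. Cx3cr1 had 67.8 FPKM on day 6, between the day 4 values of 69.8 and 45.0 FPKM, and Mertk had 18.7 FPKM on day 6, also between its day 4 values of 22.8 and 16.4 FPKM.

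The largest of the 12 falls was in the macrophage gene Cd5l. This gene (3:87357881-87371073, plus strand) had 4.91 FPKM on day 6, against 34.4 and 25.9 FPKM on day 4 and 20.1 FPKM on day 2. Its log2 change was -2.38 ± 0.32 (SE, adjusted p = 1.94e-09). Serpine2 had 2.00 FPKM on day 6, against 10.2 and 10.2 FPKM on day 4, and 0.752 FPKM on day 2, so that it was high on day 4 alone. Angptl4, an inhibitor of lipoprotein lipase, had 3.56 FPKM on day 6, against 9.54 and 19.4 FPKM on day 4, and 3.49 FPKM on day 2. Fabp3, a fatty acid carrier, had 5.83 FPKM on day 6, against 15.8 and 18.9 FPKM on day 4. Apoc2, the cofactor of lipoprotein lipase, had 38.3 FPKM on day 6, against 76.7 and 121 FPKM on day 4. Syngr1, a vesicle protein, had 10.6 FPKM on day 6, against 29.9 and 28.8 FPKM on day 4. Pcp4l1 had 3.67 FPKM on day 6, against 16.3 and 7.06 FPKM on day 4, a pair that was itself far apart. Htr2b, a serotonin receptor gene named after its values were seen, had 1.62 FPKM on day 6, against 7.18 and 4.35 FPKM on day 4. Chil3, Tnnt2, Tnnc1 and Hbb-b1 complete the 12. With a pseudocount of 0.1 FPKM, Pcp4l1, Apoc2 and Chil3 did not pass (adjusted p = 0.085, 0.065 and 0.058), and Apoc2 and Chil3 did not pass with median centring either (adjusted p = 0.078 and 0.053). Rnase4, a secreted ribonuclease that stood far from both day 4 libraries without passing (adjusted p = 0.24), had 58.4 FPKM on day 6, against 109 and 116 FPKM on day 4.

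Among genes of repair macrophages and of the lysosome, 1 fell. Of 20 genes of repair and lipid-associated macrophages, 1 fell (Syngr1), 11 lay below and 2 above both day 4 libraries, where 30.8% of all tested genes lay below, with a median log2 change of -0.41. Gpnmb, a membrane glycoprotein of phagocytes, had 272 FPKM on day 6, against 646 and 480 FPKM on day 4. Fabp5, a fatty acid carrier, had 327 FPKM on day 6, against 763 and 632 FPKM on day 4. Trem2, a lipid receptor, had 269 FPKM on day 6, against 443 and 408 FPKM on day 4. These genes were lower on day 6 than in either day 4 library. Apoe, at 16168 FPKM on day 6, lay between its day 4 values of 14480 and 21434 FPKM, and so did Spp1, at 665 FPKM on day 6 between 1276 and 564 FPKM on day 4. Igf1, a growth factor for muscle fibres, had 13.5 FPKM on day 6, against 16.7 and 13.2 FPKM on day 4. Of 22 lysosome and cathepsin genes, none passed, 15 lay below and 2 above both day 4 libraries, with a median log2 change of -0.40. Ctsd, the protease cathepsin D, had 1485 FPKM on day 6, against 3477 and 3245 FPKM on day 4, a log2 change of -1.18 ± 0.50 (SE, adjusted p = 0.66). Ctsb, cathepsin B, had 1199 FPKM on day 6, against 2121 and 2062 FPKM on day 4, and Grn, progranulin, had 626 FPKM on day 6, against 1097 and 1166 FPKM on day 4. Ctsd passed when the spread was moderated without a trend in level (adjusted p = 0.048). Of 13 cholesterol efflux genes, Apoc2 alone fell, 5 lay below and none above both day 4 libraries, with a median log2 change of -0.18. Of all tested genes, 30.8% lay below and 29.8% above.

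**Figure D4:**
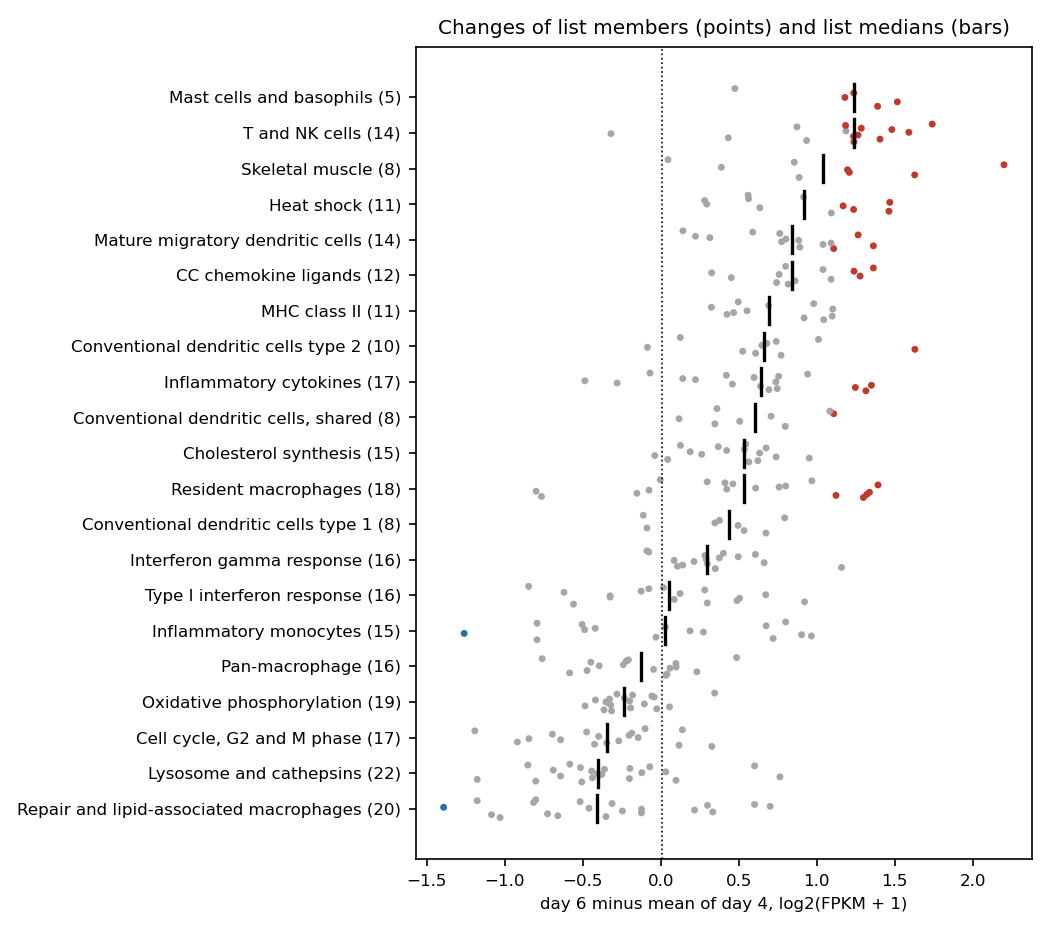
Log2 changes (horizontal axis, day 6 minus the mean of day 4, log2(FPKM + 1)) of the tested members of gene lists (rows, with the number tested in brackets). Points are genes, red where called higher, blue where called lower and grey otherwise; black bars are list medians and the dotted line is the median of all tested genes, 0.01. Only part of the lists is drawn, and among those drawn the mast cell, T and NK cell and muscle lists stand at the top and the lysosome and lipid-associated macrophage lists at the bottom.

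Some chemokine and cytokine genes rose. All 12 CC chemokine ligands lay above both day 4 libraries and 3 rose, Ccl22, Ccl7 and Ccl12, with a median log2 change of 0.84. Ccl7, a ligand of CCR2, had 109 FPKM on day 6, against 55.1 and 35.8 FPKM on day 4, and 742 FPKM on day 2. Ccl12, another CCR2 ligand in mice, had 109 FPKM on day 6, against 46.8 and 44.6 FPKM on day 4, and 319 FPKM on day 2. Both thus lay lowest on day 4 and stayed under the day 2 level on day 6. Ccl5, a T and NK cell attractant, had 213 FPKM on day 6, against 76.2 and 130 FPKM on day 4, and did not pass (adjusted p = 0.0723). Of 17 tested inflammatory cytokine and feedback genes, 3 rose, 13 lay above and 1 below both day 4 libraries. Il12b, a subunit of interleukins 12 and 23, had 8.44 FPKM on day 6, against 3.04 and 2.39 FPKM on day 4, and 0.366 FPKM on day 2. Il1a had 24.7 FPKM on day 6, against 9.19 and 9.47 FPKM on day 4, and Il6 had 7.44 FPKM on day 6, against 2.39 and 2.72 FPKM on day 4. Il1b was much more abundant, at 772 FPKM on day 6, against 469 and 485 FPKM on day 4, and did not pass (adjusted p = 1). The list's median log2 change was 0.64, and it was 0.86 without day 4 replicate 1 and 0.34 without replicate 2. With a pseudocount of 0.1 FPKM, Ccl7, Ccl12, Il12b, Il1a and Il6 did not pass, at adjusted p from 0.057 to 0.13. With median centring Ccl7 and Ccl12 did not pass (0.12 and 0.11).

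Ifnb1 had 18.4 FPKM on day 6, against 2.90 and 4.91 FPKM on day 4 and 3.94 FPKM on day 2, a log2 change of 2.02 ± 0.34 (SE, adjusted p = 1.48e-05). No member of the lists of interferon response genes was called alongside it. Of 16 type I interferon response genes, none passed, 7 lay above and 5 below both day 4 libraries, and their median log2 change was 0.05. Of all tested genes, 29.8% lay above and 30.8% below. Of 16 interferon gamma response genes, none passed and 12 lay above both, with a median of 0.30. Cxcl10, a chemokine induced by both interferons, had 360 FPKM on day 6, against 154 and 168 FPKM on day 4 (adjusted p = 0.0855).

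Heat shock genes rose in part. Of 11 tested, 4 rose and all 11 lay above both day 4 libraries, with a median log2 change of 0.92. Hspa1b, an inducible HSP70, had 811 FPKM on day 6, against 316 and 272 FPKM on day 4, and 126 FPKM on day 2. Its near-identical copy Hspa1a had 900 FPKM on day 6, against 442 and 401 FPKM on day 4, and did not pass, so the 2 copies are best read together. Hsph1, a nucleotide exchange factor for HSP70, had 25.7 FPKM on day 6, against 10.9 and 6.88 FPKM on day 4. Hsp90aa1, the inducible HSP90, had 225 FPKM on day 6, against 118 and 76.3 FPKM on day 4, and the HSP40 gene Dnajb1 had 66.2 FPKM on day 6, against 30.3 and 27.6 FPKM on day 4. The constitutive gene Hspa8 did not pass, at 1400 FPKM on day 6, against 1151 and 1131 FPKM on day 4. With log values centred on each library's median, Hspa1b, Hsp90aa1 and Dnajb1 did not pass (adjusted p = 0.092, 0.15 and 0.09), and neither did they with a pseudocount of 0.1 FPKM (0.052, 0.11 and 0.10).

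Among the remaining called genes with the largest rises, Cd81, a tetraspanin, had 47.3 FPKM on day 6, against 13 and 18.1 FPKM on day 4, and 3.85 FPKM on day 2. Thbs4, the matricellular protein thrombospondin 4, had 18.5 FPKM on day 6, against 3.37 and 7.99 FPKM on day 4. Bcl2a1a, a survival factor of the BCL2 family with near-identical copies, had 35.3 FPKM on day 6, against 10.5 and 13.5 FPKM on day 4. Pdgfb, a growth factor for mural cells and progenitors, had 47.2 FPKM on day 6, against 28.7 and 13.2 FPKM on day 4, with day 6 nearer to replicate 1, and did not pass with a pseudocount of 0.1 FPKM or median centring (adjusted p = 0.14 and 0.09). The day 2 library gave the course of the called genes. Of the 82 that rose, 77 also lay above day 2 on day 6. In 44 of the 82 both day 4 libraries were above day 2 already, in 22 both were below it, and in 16 day 2 lay between them. Of the 12 that fell, 8 also lay below day 2 on day 6. The comparisons of day 6 with day 4 and of day 4 with day 2 share the day 4 libraries, so these counts describe the course and do not test it.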

How the data were processed

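RNA from sorted cells was made into stranded mRNA libraries (NEBNext Ultra II) and sequenced in paired 43-base reads, per the labels' protocols. The submitters' processing notes name bcl2fastq, Bowtie, STAR, Cufflinks and mm10, without versions or roles. The authors deposited FPKM per gene in 1 table of 4 libraries, and no column of it was left unused. From 16860 entries, 23 names that a spreadsheet had turned into dates and the row of alignments were dropped, leaving 16836 genes. FPKM were analysed as log2(FPKM + 1) for the 9805 genes whose mean reached 1 FPKM, which understates the change of low genes. Day 6 was set against day 4 with limma 3.58.1 (R 4.3.3, moderated spread with a trend, all 4 libraries, time as a factor, two-sided, Benjamini-Hochberg). The code was also run on simulated data, drawn with the fit's own spread and the same spread for day 6 as for day 4. That run cannot check whether the day 6 library varies in this way. FPKM hold no counts, so no count test or counting interval was used.

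Genes were named by rule: the 12 largest changes each way among called genes averaging 5 FPKM or more over the day 4 and day 6 libraries (filled by distance to the nearer day 4 library), up to 4 called members of each gene list, and 21 fixed genes. Genes named outside it illustrate a list or are said to have been chosen after their values were seen, as were Klra8, the other Gimap genes, Tnnt2, Tnnc1 and Hbb-b1. The members and lists were chosen with earlier results of these data known, and lists are described by counts and medians without a test. Coordinates are from GENCODE M21 (GRCm38), promoters from RefSeq (GRCm38.p6). Versions were Python 3.11.15, pandas 2.3.3 and matplotlib 3.10.9. Alternatives were another pseudocount, other filters, median centring, other spreads and 1 day 4 library at a time.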

Additional observations from a re-analysis of the deposited data

How the results depend on the processing

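The counts of called genes stayed within 1.5 times of 82 higher and 12 lower with median centring (67 and 9), with the day 4 and day 6 libraries alone in the fit (80 and 13) and without a trend in the spread (76 and 14). They moved with a pseudocount of 0.1 FPKM (23 and 7, of which 23 and 6 were among the genes called with 1 FPKM), without a filter on low values (0 and 0, with 1056 genes at an unadjusted p under 0.05) and with each gene's own spread, an alternative chosen after seeing the data (0 and 0, with 404). With a mean of at least 5 FPKM they were 28 and 8, from fewer genes tested. Requiring day 6 to lie 2-fold from the nearer day 4 library, also chosen after seeing the data, left 65 and 8.

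Genes above both day 4 libraries numbered 5742 without the filter and 1640 with the mean of 5 FPKM. Genes above both by 2-fold numbered 36 with the mean of 5 FPKM, and those below both by 2-fold numbered 30 with a pseudocount of 0.1 FPKM. With 1 day 4 library at a time, genes above numbered 4096 to 5614, genes below 4191 to 5709, genes above by 2-fold 144 to 190 and genes below by 2-fold 36 to 49. These are values with no test, since no residual degree of freedom is left. The cause of these moves was not tested. No paired analysis was run, because the labels used here name no pairing between the day 6 library and a day 4 library.

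No called named gene changed direction in any of these alternatives. Of the named genes that were not called, Cx3cr1 and Adgre1 turned to -0.04 and -0.22 on the log2 scale without day 4 replicate 2, and Mertk, Spp1 and Igf1 to 0.18, 0.24 and 0.04 without replicate 1. Among named genes the call was lost in 30 with the pseudocount of 0.1 FPKM and in 15 with median centring. It was lost in 51, which is every called named gene, without the filter or with each gene's own spread. It was lost in 5 without the trend and in 1 (Mmp9) with the day 4 and day 6 libraries alone. With the mean of 5 FPKM it was lost in 4 of those still tested, while 50 kept their status. The other named genes were not tested there, among them the called genes Cd3g, Lyve1, Pvalb and Cma1. With only 1 library on day 6, no depth or replicate check of the day 6 values themselves was possible.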

Other observations

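Genes of the later cell cycle mostly lay lower on day 6. Of 17 tested genes of the G2 and M phases none passed, 12 lay below and 2 above both day 4 libraries, with a median log2 change of -0.35. Ube2c, which serves the anaphase-promoting complex, had 4.81 FPKM on day 6, against 10.4 and 14.4 FPKM on day 4 and 2.58 FPKM on day 2, with an adjusted p of 0.0531. Ccnb2, cyclin B2, had 3.87 FPKM on day 6, against 7.72 and 8.74 FPKM on day 4. Mki67, in contrast, had 4.05 FPKM on day 6, against 3.60 and 2.52 FPKM on day 4. Of 17 tested S phase genes none passed and 6 lay above both, a share near the 29.8% of all tested genes. Their median was 0.19, with -0.03 without day 4 replicate 2.

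Metabolic lists differed in the sign of their medians. Of 15 tested cholesterol synthesis genes none passed, 12 lay above both day 4 libraries and none below, with a median log2 change of 0.54 that was 0.78 without day 4 replicate 1 and 0.24 without replicate 2. Of 19 nuclear-encoded oxidative phosphorylation genes none passed, 14 lay below both and 1 above, with a median of -0.23. That median was -0.40 without day 4 replicate 1 and -0.09 without replicate 2. Sdhb, a subunit of complex II, had 62.4 FPKM on day 6, against 80.5 and 95.5 FPKM on day 4. Of 18 glycolysis genes none passed, 11 lay below both and 2 above, with a median of -0.15.

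Of 19 immediate early genes, which respond quickly to stimuli, none passed and 16 lay above both day 4 libraries, with a median of 0.29. Nr4a3, named after its values were seen, was called higher at 32.8 FPKM on day 6, against 23.6 and 5.54 FPKM on day 4, so that day 6 was close to replicate 1 and far from replicate 2.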
